A study of Mus musculus with 2 samples.

Results

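Potassium channel genes were taken as the protein-coding genes of the GENCODE M21 mouse annotation whose symbol begins with Kcn. There were 94 of them, 3 were left out by the rule, and the 91 described here were part of 21866 protein-coding genes with a coding start. DNase-seq reads where the enzyme DNase I can reach and cut the DNA, by sequencing the cut ends. The tissue was the gastrocnemius, a calf muscle, of male B6CASTF1/J mice (the hybrids of C57BL/6J and CAST/EiJ) at 4 days of age, with 3 males named for each library. The 1 group held 2 biological replicates with the same donor entry, so there was no contrast, no test was made, and every value is a level with its spread between these libraries (SD, n = 2).

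Potassium channels let potassium leave the cell, which sets the resting potential and ends the action potential. Voltage-gated (Kv) channels are built from pore-forming subunits, to which beta, KChIP and MinK-type subunits attach. Inward rectifiers and tandem-pore-domain (K2P) channels carry the resting conductance, and calcium-activated channels couple calcium entry to repolarisation. Skeletal muscle uses some of these genes, while many others are best known from neurons, heart or epithelia.

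Replicate 1 had 94295 peaks and replicate 2 had 123291, and the depth of replicate 2 was 2.03 times that of replicate 1, on the assumption that the smallest step of the densities is 1 cut. The tissue label was checked by markers. All 8 skeletal muscle markers (Myod1, Myog, Des, Ckm, Acta1, Chrna1, Ryr1, Ttn) and all 4 fibroblast markers were open at the promoter in each library, as were 3 of 4 endothelial, 2 of 4 Schwann cell, 1 of 4 neuronal, 1 of 4 macrophage and 1 of 4 hepatocyte markers. Markers of several cell types were thus open, and in such bulk tissue few cells with an open site and many cells with a partly open site cannot be told apart.

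By the longer peak lists, the promoters of potassium channel genes were accessible at least as often as those of all genes, but their peaks were mostly weaker. Promoters reached 500 bp to each side of every coding start of a gene. A promoter peak was found for 65 of 91 genes (71.4%) in replicate 1, against 65.2% of all protein-coding genes, and for 71 (78%) in replicate 2, against 67%. In both libraries it was found for 64 (70.3%), against 64% of all genes. The order turned when weak peaks were left out. With the shorter peak lists 50 channel genes (54.9%) were open in both, against 59.3%, and with the strongest 50% of peaks 40 (44%), against 57.7%. Stretches with a false discovery rate (FDR) below 0.05 touched the promoter in both libraries for 66 genes (72.5%), against 64.9%. The strength of a promoter was its rank, the percentile from 0 to 100 of its strongest peak among all peaks of the library. The strongest peak was picked in each library by itself. A mean rank and its SD can therefore join peaks at different places, for example at Kcnip2, Kcnj4, Kcng3, Kcnc2 and Kcnj6. Among the 64 genes the median of the mean rank was 58.6, with quartiles of 49.6 and 78.2. Among the 14000 protein-coding genes with a peak in both libraries it was 92.1, with quartiles of 80.3 and 96.7. A mean rank above 90 was reached by 4 of 64 channel genes (6.25%) and by 57.6% of all genes, and a mean rank below 50 by 18 (28.1%) and by 7.6%. The median lay lower in the channel genes in each library by itself, at 56.6 against 91.2 in replicate 1 and 64.4 against 93.2 in replicate 2.

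**Figure D1:**
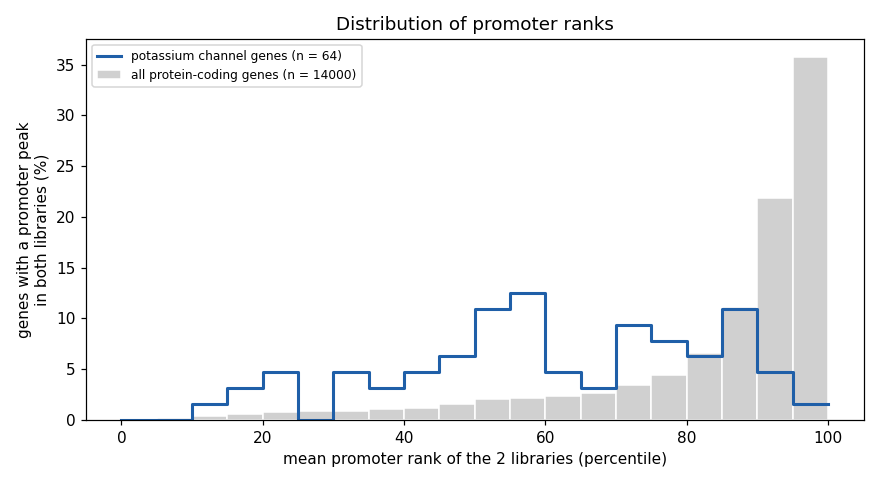
Distribution of the mean promoter rank of the 2 libraries (x axis, percentile) as the percent of genes with a promoter peak in both libraries (y axis), for the 64 potassium channel genes (line) and all 14000 protein-coding genes (bars, 5 percentiles wide). The channel genes spread from 13.2 to 98.97 with most below 90, while 57.6% of all genes lie above 90.

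3 promoters show what such a site looks like when it is clear in both libraries. They were chosen because all lay upstream of the exon, had no neighbouring coding start and ranked above 80. The sequences are the plus strand of the C57BL/6J reference (GRCm38.p6, the mm10 build) over the peak of replicate 1, and capitals mark bases inside a footprint, a stretch protected from cutting, in both libraries. Kcnn3 encodes the apamin-sensitive SK channel of immature muscle, and its peak at chr3:89519941-89520140 was centred at -123 bp from the start. Kcna7 encodes a Kv1 channel of muscle, with its peak at chr7:45405141-45405340, centred at -412 bp. Kcnh6 encodes an ERG-type channel best known from neurons, with its peak at chr11:106007921-106008080, centred at -123 bp. All 3 genes are transcribed from the plus strand.
Kcnn3 promoter: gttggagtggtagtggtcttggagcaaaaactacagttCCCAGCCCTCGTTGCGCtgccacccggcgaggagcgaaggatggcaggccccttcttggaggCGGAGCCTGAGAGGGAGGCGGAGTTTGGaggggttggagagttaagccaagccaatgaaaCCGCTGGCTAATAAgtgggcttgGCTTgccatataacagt
Kcna7 promoter: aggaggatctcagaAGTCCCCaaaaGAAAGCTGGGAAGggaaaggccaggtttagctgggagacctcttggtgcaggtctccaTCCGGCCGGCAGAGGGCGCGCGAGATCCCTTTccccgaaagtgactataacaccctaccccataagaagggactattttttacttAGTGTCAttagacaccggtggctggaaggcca
Kcnh6 promoter: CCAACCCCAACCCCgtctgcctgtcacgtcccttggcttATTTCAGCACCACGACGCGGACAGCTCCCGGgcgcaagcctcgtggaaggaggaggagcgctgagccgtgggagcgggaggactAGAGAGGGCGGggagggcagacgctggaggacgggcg
Footprints shared by both libraries covered 63 of 200 bases at Kcnn3, 59 of 200 at Kcna7 and 56 of 160 at Kcnh6. Their cut densities, a value of the authors, were 4.06 and 2.42 in replicates 1 and 2 at Kcnn3, 2.43 and 1.38 at Kcna7, and 2.94 and 1.60 at Kcnh6. The density was the higher in replicate 1 at these peaks, as at most promoters. The density in replicate 1 over that in replicate 2 had a median of 1.55 at the channel promoters and 1.52 at all promoters. The upper quartiles were 1.70 and 1.68. The ratio at Kcna7 and Kcnh6 lay above both, and that at Kcnn3 lay near them.

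Of the 10 genes listed as reported in skeletal muscle, all were open in both libraries. Among all channel genes the share was 70.3%, and among all genes 64%. The median rank of the 10 was 72.5, above that of all channel genes and below that of all genes. Kcnn3 ranked 89.96 in replicate 1 and 90.98 in replicate 2. Kcnc1, a fast-gating Kv3 channel, ranked 87.9 and 91.7. Both were high in each library and differed by less than 4 percentiles between the libraries. Kcna7 ranked 82.1 and 82.5. The BK channel gene Kcnma1, whose product opens with calcium and voltage, ranked 67.3 and 79.0. The genes that follow lay near or below the median of all channel genes. Kcne3, whose product pairs with the Kv3 channel of Kcnc4 in muscle, ranked 51.3 and 69.5, a wide gap between libraries. Kcnj12, a strong inward rectifier, ranked 56.0 and 59.4, and Kcnc4 itself 55.4 and 57.5. Kcna5, a Kv1 channel of heart, vessel and skeletal muscle, ranked 50.3 and 49.5. The list thus ran from the upper end of the open channel genes down to near their lower quartile of 49.6.

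The strongest promoter of the whole family was shared with a neighbour. Kcnab2, a Kv beta subunit, ranked 98.97 and 98.98 (mean 98.97 ± 0.00499), with densities of 11.3 and 6.62. Its peak also lay within 500 bp of a start of Nphp4, so cuts there cannot be given to either gene. It was the only open channel gene whose strongest promoter peak touched the promoter of another coding gene, whereas 11686 of the 14000 open genes had a peak of their own. Without it the median rank was 57.8, against 90.99 for all genes treated alike. Other genes of high rank were Kcnk5 (a pH-sensitive K2P channel, 93.0 ± 0.0377), Kcnn3 (90.5 ± 0.718) and Kcnc1 (89.8 ± 2.65).

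**Figure D2:**
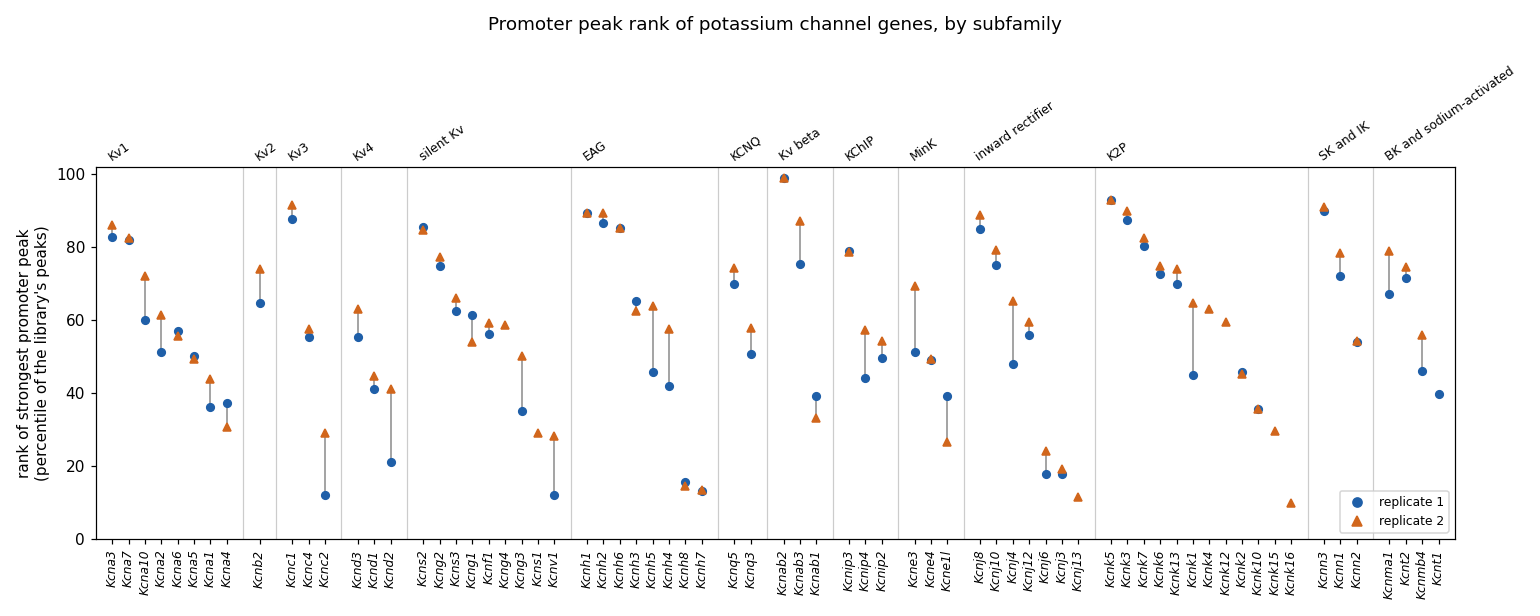
Rank of the strongest promoter peak (y axis, percentile of the library's peaks) for 69 potassium channel genes with a promoter peak in at least 1 library, by subfamily (x axis). Circles are replicate 1 and triangles replicate 2, and a line joins them; ranks differ within subfamilies, and the ether-a-go-go (EAG) genes run from 89.4 for Kcnh1 to 13.2 for Kcnh7.

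By the longer peak lists every gene of the pore-forming Kv1, Kv4 and EAG groups was open in both libraries, against 64% of all genes, and ranks within a group differed widely. By the shorter lists Kcna1 and Kcnd2 had no promoter peak in replicate 1, Kcnh3 none in replicate 2, and Kcnh4 and Kcnh7 none in either. Of the 8 Kv1 genes, Kcna3, the Kv1 channel best known from T cells, ranked highest at 84.5 ± 2.25. Kcna7 followed, then Kcna10 at 66.1 ± 8.53, Kcna2 at 56.4, Kcna6 at 56.3, Kcna5 at 49.9 and the axonal channels Kcna1 at 40.0 and Kcna4 at 33.9. Kcnb2, a Kv2 channel, ranked 69.4 ± 6.45. Among the Kv3 genes Kcnc2, an interneuron channel, ranked 20.6 ± 12.1, far below Kcnc1. The 3 Kv4 genes, which carry fast transient currents in heart and neurons, ranked in the middle or below: Kcnd3 at 59.3 ± 5.49, Kcnd1 at 42.9 ± 2.62 and Kcnd2 at 31.1 ± 14.1. Of the 8 EAG genes Kcnh1, which human myoblasts express before they fuse, ranked 89.4 ± 0.121, and Kcnh2, the ERG channel of the heart, 88.0 ± 2.06. Kcnh6 ranked 85.4 ± 0.13 and Kcnh3 63.9 ± 2.08. Kcnh5 ranked 54.9 ± 12.8 and Kcnh4 49.8 ± 10.97. Kcnh8 (15.1 ± 0.774) and the neuronal ERG gene Kcnh7 (13.2 ± 0.206) were, with Kcnj3, the 3 lowest of all 64 genes.

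The KCNQ and silent Kv genes also differed among themselves. Kcnq5, a KCNQ channel of vessels and neurons, ranked 72.1 ± 3.12, and Kcnq3, part of the neuronal M current, 54.3 ± 5.22. Silent Kv subunits form no channel alone and modify the Kv2 channels, and 7 of 10 had a peak in both libraries. Kcns2 was highest at 85.2 ± 0.493 and Kcng2 next at 76.1 ± 1.89, followed by Kcns3 at 64.3, Kcng1 at 57.8, Kcnf1 at 57.8, Kcng3 at 42.6 and Kcnv1 at 20.1. Kcng4 (58.7) and Kcns1 (29.2) were open in replicate 2 only. Kcnv2, known from photoreceptors, had none.

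Among the subunits that attach to Kv channels, all 3 Kv beta genes were open in both libraries. Below Kcnab2, Kcnab3 ranked 81.4 ± 8.26 and Kcnab1 36.2 ± 4.25. Of the 4 KChIP genes, which encode calcium-binding partners of Kv4 channels, Kcnip3 ranked 78.9 ± 0.33, Kcnip2, the cardiac form, 52.0 ± 3.45 and Kcnip4 50.7 ± 9.23. The strongest Kcnip2 peak lay 19891 bp downstream of the most upstream start in replicate 1 and 3750 bp in replicate 2, so its SD compares different sites. Kcnip1 had no promoter peak. Of the 5 MinK-type genes Kcne3 ranked highest (60.4 ± 12.8), with Kcne4 at 49.3 and Kcne1l at 32.9, and neither Kcne1 nor Kcne2, which pair with heart channels, had a peak.

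Of 13 inward rectifier genes, 6 (46.2%) were open in both libraries, fewer than the 70.3% of all channel genes. Kcnj8, the pore of the vascular ATP-sensitive channel and a marker of pericytes, ranked highest at 85.0 and 88.8. Kcnj10, the glial channel, ranked 75.2 and 79.4. Kcnj4 (56.7 ± 12.2), a relative of Kcnj12, lay in the middle. The G protein-gated genes were weak or closed, with Kcnj6 at 20.9 ± 4.47 and Kcnj3 at 18.4 ± 0.927, and with no peak at Kcnj5 and Kcnj9. Kcnj13 had a peak in replicate 2 only, at rank 11.4, and the epithelial genes Kcnj1, Kcnj15 and Kcnj16, as well as Kcnj14, had none. Of the 4 calcium-activated SK and IK genes 3 were open. Kcnn1 ranked 75.3 ± 4.63 and Kcnn2, a neuronal and cardiac channel, 54.2 ± 0.359, and Kcnn4, the channel of blood cells and epithelia, was closed. Of the 8 genes of the BK and sodium-activated group 3 (37.5%) were open, and Kcnma1 led at 73.2 ± 8.3. The sodium-activated Kcnt2 ranked 73.1 ± 2.19 and the BK subunit Kcnmb4 51.1 ± 6.94. Kcnt1 was the only gene with a promoter peak in replicate 1 and none in replicate 2, at rank 39.7. Kcnmb1, the BK subunit of smooth muscle, Kcnmb2, Kcnmb3 and the sperm channel Kcnu1 had none. Kcnrg, a soluble regulator of Kv channels, had none either.

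Of 14 K2P genes, 8 were open in both libraries and 4 in replicate 2 only. Below Kcnk5, Kcnk3, an acid-sensitive channel of heart and vessels, ranked 88.7 ± 1.69 and Kcnk7 81.5 ± 1.49. Kcnk6 (73.8), Kcnk13 (72.0), Kcnk1 (54.9), Kcnk2 (45.5) and Kcnk10 (35.6) followed. The genes open in replicate 2 only were Kcnk4 at rank 63.0, Kcnk12 at 59.4, Kcnk15 at 29.7 and Kcnk16 at 9.92. Kcnk12 was open in both libraries by the FDR, where 4.0% of its promoter in replicate 1 and 68.4% in replicate 2 lay below 0.05. Kcnk9 and Kcnk18, channels of neurons, had no peak. In all, 7 of the 91 genes (7.69%) had a peak only in replicate 2, 1 (1.1%) only in replicate 1 and 19 (20.9%) in neither. Of all protein-coding genes, 65.2% had a promoter peak in replicate 1, 67% in replicate 2 and 64% in both.

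Lists of tissue use overlapped in these ranks. The lists are small, and the share open in both libraries was 70.3% for all channel genes and 64% for all genes. Of 8 genes of heart currents 6 (75%) were open, with a median rank of 55.7. Of 6 genes of smooth muscle and pericytes 5 (83.3%) were open, with a median of 73.2. Of 15 genes best known from neurons 11 (73.3%) were open, with a median of 40.0. Kcnj9 and Kcnk9 of that list were open in neither library and Kcnt1 in replicate 1 only. The lists share genes, as the neuronal list holds Kcnc1 and the smooth muscle list Kcna5 and Kcnma1. Of 8 genes of channel partners without a Kcn symbol, 6 (75%) were open, with a median of 60.9. Among them was Abcc9, the sulfonylurea receptor of vessel and muscle, at 62.0 ± 11.1. Closed were Abcc8, its counterpart of the pancreas, and Lrrc55, a BK subunit.

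CpG content tracked which promoters were open, but the low ranks were found in nearly all CpG classes. All genes were put into 10 classes by the ratio of observed to expected CpG around the most upstream coding start. If each channel gene were open at the share of its class, 62.2 would be, and 64 were. In classes 1 to 4, the CpG-poor ones, 13 of 31 channel genes (41.9%) were open, against 21.4% of all genes. In classes 5 to 7 it was 34 of 39 (87.2%), against 87.3%, and in classes 8 to 10, 17 of 21 (81.0%), against 97.7%. By rank, 57 of the 64 open genes lay below the median of their own class, with a median difference of -25.9. The exception among the classes was class 3, where the 3 channel genes had a median of 78.9 against 76.4. Of these, Kcnip3 and Kcnk7 had no peak at the start that set their class. By the start with the highest CpG ratio, class 3 had 49.3 against 65.4. The exception was then class 1, where the 1 channel gene had 66.1 against 52.5.

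**Figure D3:**
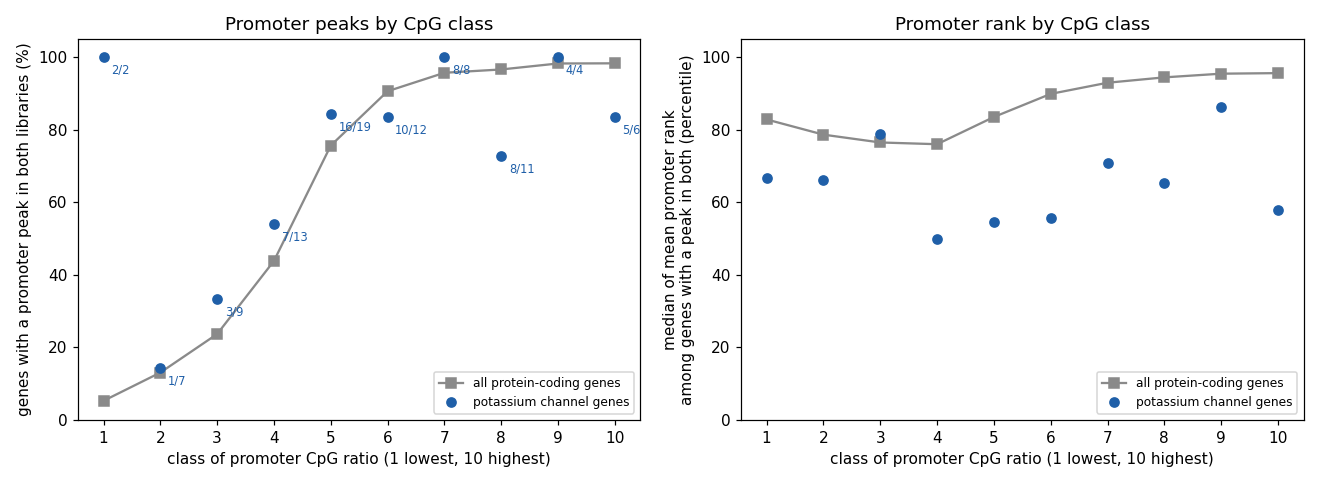
Percent of genes with a promoter peak in both libraries (left y axis) and median of the mean promoter rank among them (right y axis, percentile) by class of promoter CpG ratio (x axis), for potassium channel genes (circles) and all protein-coding genes (squares and line). Numbers beside the circles give open genes over all channel genes of the class; the share open follows the line in the middle classes, with 87.2% against 87.3% in classes 5 to 7, while the ranks lie below it in all classes but class 3.

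The 13 CpG-poor genes with an open promoter included several of muscle. They were Kcnma1 and Kcne3 in class 1, Kcna10 in class 2, Kcnip3, Kcnk7 and Kcnd1 in class 3, and Kcnn3, Kcnh6, Kcng2, Kcna5, Kcne4, Kcnab1 and Kcnc2 in class 4. Of these, Kcnma1, Kcne3, Kcnip3 and Kcnk7 had no peak at the most upstream start in either library. At Kcnma1 the peak was centred 9640 bp downstream of that start in replicate 1 and 9540 in replicate 2. At Kcnip3 it lay 38729 bp downstream in both. In all, 57 genes were open in both libraries at the most upstream start, and the other 7 at later starts. By the start with the highest CpG ratio, Kcnma1 falls into class 10. Kcnk9, a channel of neurons, had no peak although it lay in class 10, with a ratio of 0.911.

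The weakest promoters of channel genes were wider, at the median, than those of other genes of like rank. Of the 18 with a mean rank below 50, the median share of promoter bases with an FDR below 0.05 was 38.9% in replicate 1 and 58.5% in replicate 2, against 19.4% and 24.7% in all genes of that rank. Between ranks of 50 and 75 it was 40.6% and 53.4%, against 31.8% and 41.0%. Between 75 and 90 the order was the other way round, at 35.7% and 41.3% against 46.2% and 56.0%. The longest unbroken low-FDR stretch of the 18 had a median of 356 bp in replicate 1 and 671 bp in replicate 2, where all genes of that rank had 238 and 322.5 bp. Among the widest promoters were those of Kcnq5, with 100% of its promoter bases in both libraries, and Kcna3, with 100% and 97.2%. Kcnc4 had 78.4% and 94.5%, although its rank was 56.5. Kcng3, at rank 42.6, had 55.5% and 100%. Kcnh4, at rank 49.8, was narrow (12.1% and 10.4%, or 145 and 125 bp), so width varied among genes of like rank. Kcnip2 had only 12.5% and 15.9%, but its 9 starts gave a promoter of 5263 bp, of which 657 and 834 bp lay below 0.05. The percent thus depends on the number of starts as well as on width. Rank and width come from the same cuts and are not independent measures.

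**Figure D4:**
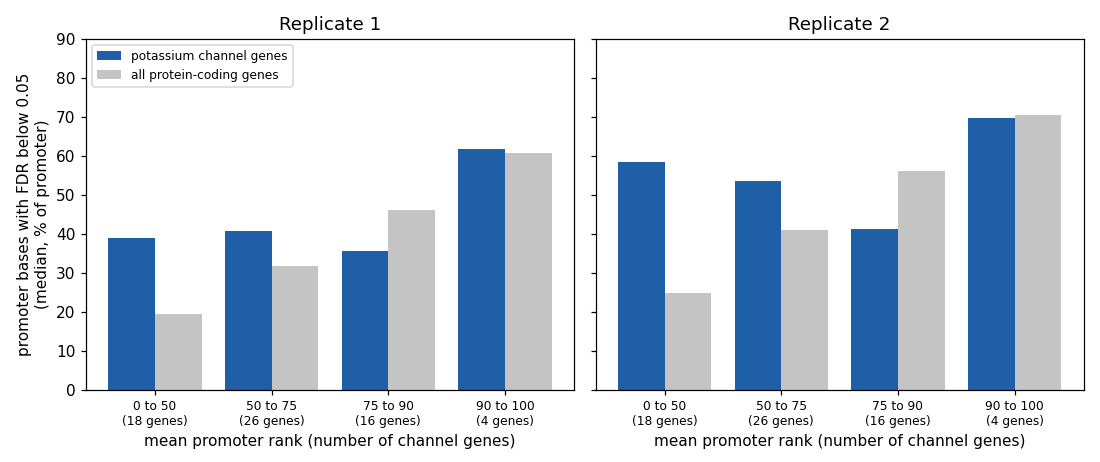
Median percent of promoter bases with an FDR below 0.05 (y axis) by band of mean promoter rank (x axis, percentile), for potassium channel genes (dark bars, number of genes below each band) and all protein-coding genes with a promoter peak in both libraries (light bars), in replicate 1 (left) and replicate 2 (right). The 18 channel genes of rank 0 to 50 stand at 38.9% and 58.5%, above the 19.4% and 24.7% of all genes.

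Shared distal peaks, whose centre lay over 1000 bp from every start and within 50 kb of the most upstream coding start, were found around 74 of 91 genes (81.3%), against 73.3% of all genes. The median number per gene was 3, against 2. Of 275 pairs of gene and peak, 126 lay in introns, 37 in exons and 112 between genes, and 80 lay inside the channel gene itself. They came from 259 peaks, 16 of which were near 2 or more channel genes. The median rank of these peaks was 62.1, and that of all 45755 shared distal peaks was 56.0. In rank the distal peaks thus lay slightly above those of the genome, where the promoters lay below those of other genes. The peaks of the genome were taken without the limit of 50 kb from a coding start, so the 2 sets of distal peaks are not alike.

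Kcnn1 had 11 shared distal peaks, a number that no other channel gene exceeded. At Kcnn1 the strongest lay at -2393 bp, ranked 97.5 and 99.2 and was the strongest near any channel gene, above the gene's own promoter peak at 72.0 and 78.6. Further peaks at 18547 bp, inside Kcnn1, and at 22007 bp ranked 93.7 and 92.4 on average. Kcnn4 had 9 although its promoter was closed. Its strongest, at -5282 bp, ranked 84.4 and 86.5. Kcnk15, with a promoter peak in replicate 2 only, had 8, the strongest of them at -15390 bp with 84.4 and 86.4.

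Kcnj10 and Kcnj9 lie side by side, with 11892 bp between their starts, and shared all 8 of their distal peaks, although Kcnj10 was open and Kcnj9 closed. The strongest lay in an intron of Igsf8, -30929 bp from Kcnj10 and 19037 bp from Kcnj9, and ranked 93.3 and 94.5. A peak inside Kcnj9, 4407 bp from its start, ranked 81.0 and 85.2. Kcne2 and Kcne1, also neighbours and both closed, shared 4 peaks, and the strongest near Kcne2, at -5598 bp, ranked 91.3 and 92.1. Of the 4 pairs of Kv1 genes that lie next to each other, only Kcna2 and Kcna10, 81910 bp apart, shared a distal peak. Kcna3 and Kcna2, 64977 bp apart, shared none. Kcna5 and Kcna1, 109401 bp apart, could share none within 50 kb of each start. The 95861 bp between Kcna1 and Kcna6 left only a narrow stretch for one. Distance does not tell which gene a distal peak acts on.

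**Figure D5:**
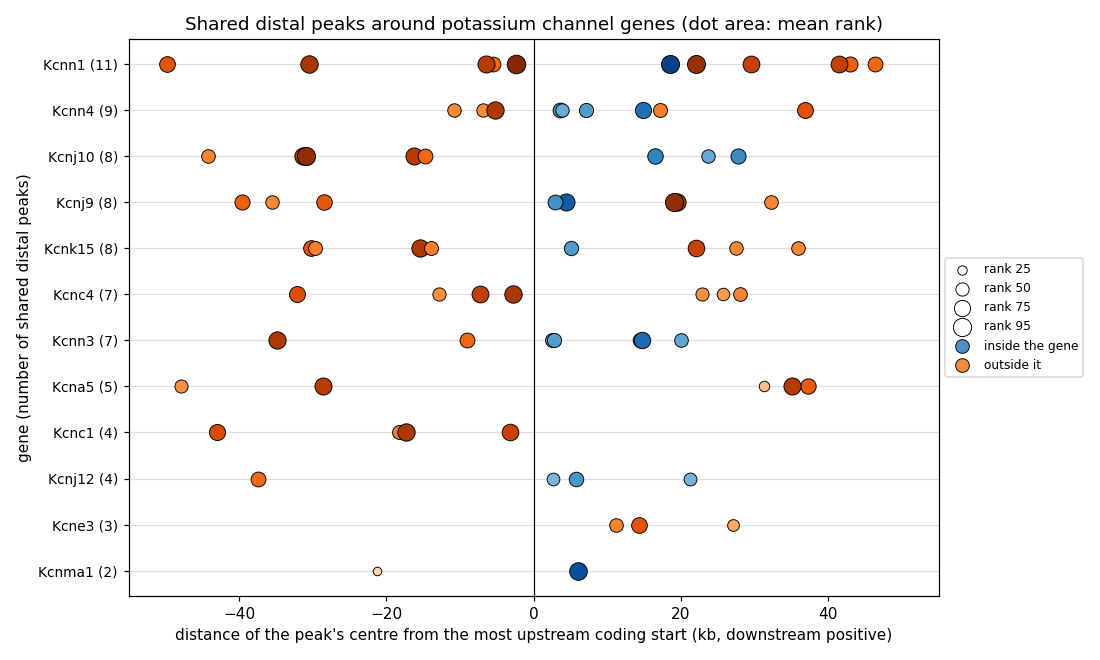
Distance of shared distal peaks from the most upstream coding start (x axis, kb, downstream positive) for 5 potassium channel genes with 8 or more such peaks and 7 genes of the skeletal muscle list (y axis, number of peaks in brackets). Dot area and shade follow the mean rank, blue dots lie inside the gene and orange dots outside it; Kcna7 has none and is not drawn, and 10 of the 11 dots of Kcnn1 are orange.

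In the muscle list the distal peaks differed as much as the promoters. Kcnn3 had 7, of which 5 were in its introns. Kcnc4 had 7 outside the gene, the strongest at -2809 bp with ranks of 85.8 and 87.2. Kcna5 had 5, and those at 35151 and -28639 bp averaged 83.6 and 83.2, well above its promoter. Kcnc1 had 4, with 1 in an exon of the neighbouring gene Myod1, at -18249 bp, and 1 next to it, at -17306 bp, and Kcnj12 also had 4. Kcne3 had 3 and Kcnma1 had 2, of which the intronic peak at 6030 bp ranked 88.6 in both libraries. Kcna7 had no shared distal peak, with 0 distal peaks in replicate 1 and 2 in replicate 2.

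Some of these distal peaks carried a CAGCTG E-box, the core bound by MyoD and its relatives, inside a footprint. Among the 259 distal peaks near channel genes 84 (32.4%) held CAGCTG in the 200 bp around their centre, against 29.8% of all distal peaks. It lay in a footprint of both libraries in 8 (3.09%), against 2.63%, which is near the background. Among the genes with such a peak were Kcnc1, Kcnj4, Kcnk15, Kcnk7, Kcnn1 and Kcnn3. The 3 shown lie near Kcnn3 of the muscle list, near Kcnn1 with its many distal peaks and near Kcnk7. They are the plus strand of the same reference over the peak of replicate 1, with the footprinted E-box in capitals. The Kcnn3 peak at chr3:89534861-89535020 is intronic, 14777 bp from the start, with a mean rank of 76.8. The Kcnn1 peak at chr8:70833701-70833860 lies between genes, 29477 bp downstream, with 80.3. The Kcnk7 peak at chr19:5725121-5725340 lies in an intron of Ehbp1l1, 20864 bp from the start, with 87.0.
Kcnn3 distal: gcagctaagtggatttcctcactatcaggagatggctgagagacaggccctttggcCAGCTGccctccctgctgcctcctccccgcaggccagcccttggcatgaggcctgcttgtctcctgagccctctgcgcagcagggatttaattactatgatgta
Kcnn1 distal: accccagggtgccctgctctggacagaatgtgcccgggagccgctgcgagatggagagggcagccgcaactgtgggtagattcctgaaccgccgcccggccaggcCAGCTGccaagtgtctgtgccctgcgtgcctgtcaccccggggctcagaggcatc
Kcnk7 distal: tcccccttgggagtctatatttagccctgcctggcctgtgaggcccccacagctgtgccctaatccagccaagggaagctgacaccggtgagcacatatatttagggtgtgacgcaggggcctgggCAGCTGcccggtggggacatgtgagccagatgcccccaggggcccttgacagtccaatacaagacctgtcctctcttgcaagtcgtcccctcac
The Kcnk7 peak also held a MEF2 site, at 5725135 to 5725144 and in no footprint, which 2 of the 259 peaks and 0.428% of all distal peaks did. For the other motifs searched on both strands the shares were as follows. CACCTG was found in 16.6% against 15.6%, CATTCC (the MCAT element) in 11.6% against 13.8%, TGANTCA (the AP-1 site) in 6.95% against 7.85%, GGGCGG (the GC box) in 15.4% against 11.9%, and the CArG box in 0.772% against 0.87%. In a footprint of both libraries the GC box was found in 14 of the 259 (5.41%), against 2.57%, and CACCTG in 12 (4.63%), against 3.44%. The MCAT element was found in such a footprint in 3 (1.16%), near Kcna5, Kcnc4 and Kcnn1, against 0.479%. In promoter peaks the GC box was found in 41 of 65 (63.1%), against 65.1% of 14262 promoter peaks of all genes, but in a footprint of both libraries in 11 (16.9%), against 33.8%. The peaks compared were of unlike strength, with median ranks of 58.6 and 92.1 among genes open in both libraries. Shares at like rank were not computed. CAGCTG was found in 9 of the 65 (13.8%), against 12.7%. It lay in a footprint of both libraries in none of the 65, against 0.897% of all promoter peaks, so few were to be found.

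The RE1 element, bound by REST, which represses neuronal genes in other cells, was the motif whose share departed most, as a ratio, from that of all distal peaks. With its left and right blocks 2 bases apart and up to 4 mismatches, it was found in 8 of the 259 peaks (3.09%), against 1.01% of all distal peaks. In a footprint of both libraries it was found in 3 (1.16%), against 0.374%. The 8 peaks were near Kcnd1, Kcnd3, Kcnh2, Kcnj6 (2 peaks), Kcnk9, Kcnmb2 and Kcnn4, and the one at -22411 bp from Kcnk9 held 4 matches, none of them in a footprint. These counts are small. The 3 in footprints are shown as the plus strand with the element in capitals, which on that strand reads as its reverse complement. They are chr5:24357561-24357720, -6037 bp from Kcnh2 with a mean rank of 87.0, chr16:94972601-94972760 in an intron of Kcnj6 with 69.2, and chrX:7795200-7795303, -27027 bp from Kcnd1 in an intron of Gripap1 with 40.2. The last is extended past the peak to take in the whole match.
Kcnh2 distal: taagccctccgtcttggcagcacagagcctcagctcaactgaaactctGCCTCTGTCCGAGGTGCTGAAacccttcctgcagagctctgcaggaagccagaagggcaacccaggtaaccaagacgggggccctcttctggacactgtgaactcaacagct
Kcnj6 distal: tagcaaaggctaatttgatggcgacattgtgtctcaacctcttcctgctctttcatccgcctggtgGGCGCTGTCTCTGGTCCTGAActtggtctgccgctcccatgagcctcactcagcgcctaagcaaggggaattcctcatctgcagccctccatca
Kcnd1 distal: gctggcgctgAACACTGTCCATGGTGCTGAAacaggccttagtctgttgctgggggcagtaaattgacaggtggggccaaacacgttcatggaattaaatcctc
The match had 2 mismatches at Kcnh2 and Kcnj6 and 3 at Kcnd1. In promoter peaks the element with blocks 2 bases apart was found in 1 of 65 (1.54%), against 0.771% of all promoter peaks. It lay in a footprint of both libraries in none of the 65, against 0.273% of all promoter peaks. The promoter of Kcnh6 shown above holds both blocks in 1 footprint with a wider space. A search for blocks 3 to 12 bases apart with up to 2 mismatches, chosen after that promoter was seen, found them in 2 of 65 promoter peaks of channel genes (3.08%), against 0.266% of all promoter peaks. At Kcnh6 there were 7 bases between, 1 mismatch and a footprint in both libraries. Because the search was prompted by this peak, its count is a description only.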

How the data were processed

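DNase-seq was analysed from interval lists called on each library by itself, on build mm10 per the file listings. The deposited peak lists give the authors' cut density (signal), the deposited FDR lists give q-values below 0.05 per stretch, and the deposited footprint lists carry the constant 0.01, so only their positions were used. For the aligner and caller, names and versions were not given in the sources used here. The longer of the authors' peak lists was used. All densities under 1 were whole multiples of 1 step (tolerance 0.1 step), 0.00675 in replicate 1 and 0.00333 in replicate 2. Depth in reads is unknown, and the ratio of 2.03 assumes that 1 step is 1 cut.

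Genes and starts came from GENCODE M21, and sequence from GRCm38.p6, whose chromosome ends no peak passed. 1 allele of these mice is CAST, whose variants were not seen. A peak touched a promoter, or was shared, by at least 1 bp. Distal peaks were counted on the peaks of replicate 1. Motifs were searched in 200 bp around the peak centre, in the strongest promoter peak of replicate 1 (65 genes) and in distal peaks. Interval code was tested on simulated data. Python 3.11.15, numpy 2.4.6, scipy 1.17.1 and pysam 0.24.0 were used.

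The members, lists and alternatives were chosen with earlier results of these data known. Genes were named by a rule: the highest rank of each subfamily, the muscle list, genes open in 1 library, the 5 highest and 3 lowest ranks, the 5 genes with the most distal peaks, and open CpG-poor or closed CpG-rich genes. The others were given within their subfamily. The values of 4 members are not reported here one by one, though the counts and medians include them. No test was made, since 1 group has no contrast and genes are not replicates. Alternatives were other promoter widths, starts, peak lists, peak numbers, distances and overlaps, an FDR of 0.001, and each library alone.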

Additional observations from a re-analysis of the deposited data

How the results depend on the processing

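With 1 group no result had a test. The median promoter rank of 58.6 became 64.1 with promoters of 1000 bp on either side, 50.3 with the shorter peak lists and 49.1 with the strongest 50% of peaks. All genes then had 92.1, 88.1 and 86.6, so the channel genes stayed lower in each. The share open in both libraries lay above that of all genes with other promoter widths, the most upstream start, equal numbers of peaks and each library alone. It turned lower with the shorter lists (50 genes, 54.9% against 59.3%) and the strongest 50% of peaks (40 genes, 44% against 57.7%). In replicate 1 these gave 51 genes (56% against 60.1%) and 41 (45.1% against 58.2%), and in replicate 2 61 genes (67% against 62.2%) and 51 (56% against 60.3%). For low-FDR promoters and distal peaks, all genes were counted under the main setting only. The median number of distal peaks of 3 became 1 within 25 kb, 5 within 100 kb and 1 with the shorter lists. Leaving out a replicate gave median ranks of 56.3 to 62.4, counts of open promoters of 65 to 71, of low-FDR promoters of 66 to 72, of genes with distal peaks of 77 to 85, and medians of 3 to 4 distal peaks. By the start with the highest CpG ratio, 56 of 64 genes lay below their class median. By that start 15 of 33 genes (45.5%) were open in classes 1 to 4, against 18.7% of all genes. Of the 33, 16 lay in class 3 and 11 in class 4, while all genes were spread evenly. In classes 1, 2, 3 and 4 by themselves 100%, 0%, 31.25% and 81.8% were open, against 1.92%, 6.54%, 17.7% and 48.4%. In classes 5 to 7, 25 of 31 (80.6%) were open, against 90.8%, and in classes 8 to 10, 24 of 27 (88.9%), against 97.9%. The near match in classes 5 to 7 thus held for the most upstream start only. Leaving out genes that share a promoter peak, an alternative added after seeing the data, changed neither result. No paired analysis was possible because there was 1 group. The weakest peaks depend on depth, which limits the genes open in 1 library.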
